A study of Rattus norvegicus with 6 samples.

Results

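The interleukin-6 family and its STAT3-SOCS pathway were examined as 10 named genes: Il6, Osm and Lif, which encode secreted ligands; Il6r, Il6st and Osmr, which encode receptor chains; Stat3; and Socs1, Socs2 and Socs3. A gene was represented by probe sets whose only symbol in the array annotation was that gene's, and where there were several by the one with the highest mean over all 6 arrays. Such probe sets were found for 9 of the 10 genes, 14 probe sets in all, among 14217 genes named on the array. Expression of Osmr was not analysed here, and Osmr enters only the promoter counts below.

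Ligands of this family bind receptor complexes built around a shared signalling chain, gp130, the product of Il6st. Receptor-bound Janus kinases then phosphorylate STAT3, which enters the nucleus and switches on target genes. SOCS3 is among those targets and binds back to gp130 to end the signal, so Socs3 transcript is often read as a sign of recent signalling. In oral mucosa interleukin-6 and oncostatin M are known as cytokines of gum inflammation.

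Tissue healed around a dental implant was set against mucosa healed over a socket left empty. In male Sprague Dawley rats upper first molars were taken out left and right at an age of 4 weeks, and a titanium alloy implant was set into the left socket only. After 4 weeks, peri-implant soft tissue was taken from the left and oral mucosal tissue from the healed right side, so implant and side of the mouth cannot be told apart. Tooth extraction was common to both groups, and each group held 3 arrays from total RNA of whole tissue. Whether the 3 samples of a group are 3 rats is not stated, so p-values reflect the spread among samples, and that spread could be technical.

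Values are log2 signals. A value of 5.90, the 40th percentile over every array and probe set, is used as a dim floor, below which differences have little meaning. Detection calls were not used. Arrays were alike in median signal, 6.62 to 6.78, and 58.3% to 62.4% of the probe sets of an array lay above the floor. Profiles correlated at 0.965 to 0.981 within groups and at 0.931 to 0.945 between groups across the tested probe sets, which are not independent replicates. Both tissues had high signals for epithelial keratins. Krt13, of non-keratinised mucosa, averaged 16.16 in peri-implant tissue and 16.17 in mucosal tissue, near the highest signals of the arrays (16.14 to 16.78), so this is no measure of equality. Under quantile normalisation it was called higher, by 0.19 (limma adjusted p = 0.00620, within 0.00620 to 0.994 over its alternatives).

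Reference promoters show what the ligand and its inhibitors carry upstream of their start, and RefSeq sequence of the GRCr8 assembly was at hand for 7 of the 10 genes. Only for Il6 and Socs1 did the 250 bases before the start lie wholly outside the annotated gene, so these are printed, 5′ to 3′ on the strand of the gene. The letter patterns searched, on both strands, were TTCNNNGAA, a general STAT palindrome, and GGG followed by any 5 bases and CC, a general NF-kB type pattern. Matches are in capitals. In Il6, 2 matches overlap at bases -68 to -58 and a further one lies at -109 to -100, counted back from the start. In Socs1 the STAT palindrome lies at -196 to -188, and the other capitals are NF-kB type matches, some of them overlapping.
Il6 (chr4:5894576-5894825, minus strand): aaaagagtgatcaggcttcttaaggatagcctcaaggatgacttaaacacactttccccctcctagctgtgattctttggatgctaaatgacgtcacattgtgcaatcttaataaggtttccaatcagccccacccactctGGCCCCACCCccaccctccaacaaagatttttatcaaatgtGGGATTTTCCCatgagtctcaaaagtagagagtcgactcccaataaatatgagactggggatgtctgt
Socs1 (chr10:5389324-5389573, plus strand): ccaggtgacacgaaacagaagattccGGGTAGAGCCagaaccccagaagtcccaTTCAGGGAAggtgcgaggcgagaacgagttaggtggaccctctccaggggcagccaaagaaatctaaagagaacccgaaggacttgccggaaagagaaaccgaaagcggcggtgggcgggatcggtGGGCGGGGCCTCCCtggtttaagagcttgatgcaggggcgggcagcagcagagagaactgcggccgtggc
Of 33469 reference promoters of this length, 7.67% held the STAT palindrome and 42.3% the NF-kB type pattern. Among the 7 genes of the family, 1 and 4 did. The 4 were Il6, Socs1, Osmr and Socs3, and for Osmr and Socs3 the bases searched lay mostly or wholly inside the annotated gene. These matches describe letters and not binding. In the same assembly Osm and Lif are direct neighbours on chromosome 14, with 0 annotated genes between them.

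Among the members, Osm was clearly higher in peri-implant soft tissue, while Stat3 was modestly higher. Il6r and Il6st were also called higher, close to the threshold. Il6, Lif, Socs1 and Socs2 lay below the dim floor on every array, so their levels could not be compared. Of the 9 genes, 4 passed the test as higher and 0 as lower, while 1 missed the threshold and 4 fell below the signal filter and were not tested (limma with Benjamini-Hochberg adjustment over all 18625 probe sets tested, threshold 0.05). Of all 10585 genes tested, 26.1% passed, 15.2% as higher and 11.0% as lower. At an unadjusted p under 0.05, 5 members were higher and 0 lower, against 2278 and 1724 of all 10585 genes tested. Osm and Socs3 passed the filter only through their peri-implant values, so the count over tested members is a description. Peri-implant values lay above all mucosal values for 6 of the 9 members, against 19.8% of all 14217 genes. One of these 6, Il6, was dim throughout. The median difference over all genes tested was 0.03.

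**Figure D1:**
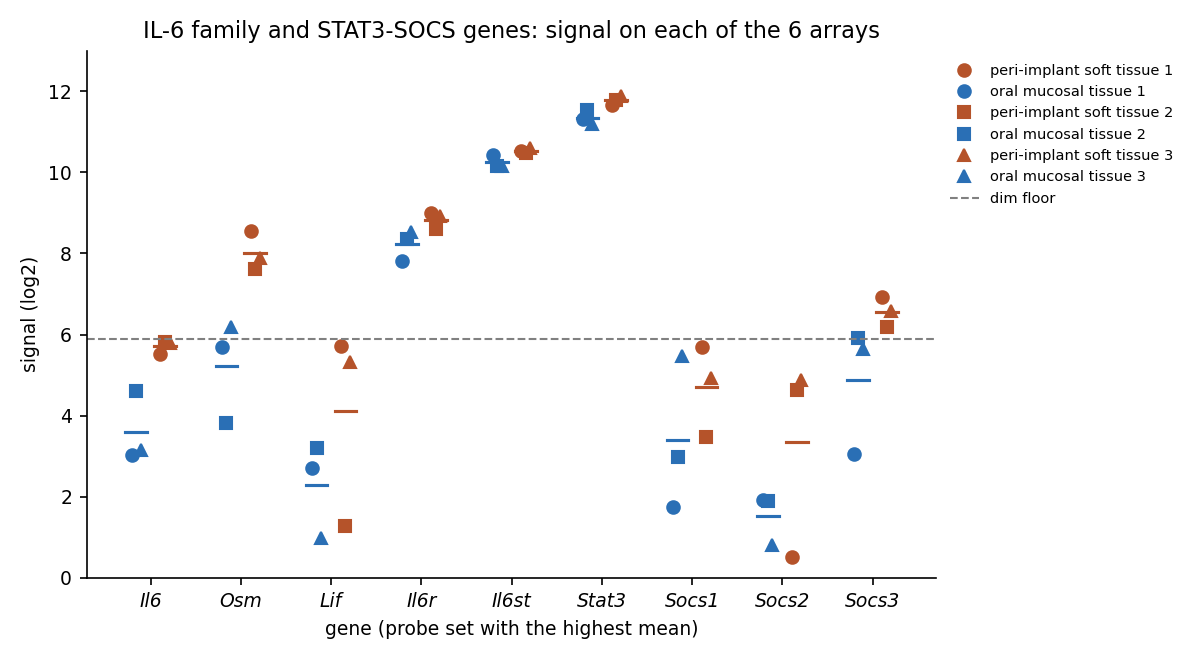
Log2 signal of each gene on each of the 6 arrays, with peri-implant soft tissue in orange and oral mucosal tissue in blue, one marker shape per replicate number, a line at each group mean and a dashed line at the dim floor of 5.90. Osm separates the groups widely, Il6r, Il6st and Stat3 are bright in both with small gaps, and all values of Il6, Lif, Socs1 and Socs2 lie under the floor.

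Osm encodes oncostatin M, a ligand made mainly by leukocytes that acts on stromal and epithelial cells. Its signal was 8.55, 7.61 and 7.89 on peri-implant arrays 1, 2 and 3, and 5.70, 3.82 and 6.18 on mucosal arrays 1, 2 and 3. Every peri-implant value was above every mucosal value, and mucosal arrays 1 and 2 were below the dim floor. The group means were 8.02 ± 0.48 and 5.23 ± 1.25 (SD, n = 3 each), a difference of 2.79 (SE 0.52, limma adjusted p = 0.00151). This was larger than that of 99.4% of the genes tested. That rank is a description only, since Osm was tested only through its peri-implant values. With values under the floor raised to it, the difference was 2.03, and it was still called (limma adjusted p = 8.92e-05). Osm was called under each of the 14 alternatives that gave it a value (limma adjusted p from 8.92e-05 to 0.0344), while the stricter signal filter left it out.

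Il6 encodes interleukin-6 itself. Its signal was 5.53, 5.82 and 5.79 on the peri-implant arrays and 3.03, 4.60 and 3.15 on the mucosal arrays. The groups did not overlap, but all 6 values were under the floor, so raising values to the floor left a difference of 0. When every probe set was tested without a filter the difference was 2.12 (SE 0.79) and did not pass (limma adjusted p = 0.112). A difference in Il6 was therefore not detectable at these signal levels.

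Lif encodes leukaemia inhibitory factor, another gp130 ligand. Its signal was 5.71, 1.29 and 5.33 on the peri-implant arrays and 2.70, 3.20 and 0.97 on the mucosal arrays. Peri-implant array 2 lay among the mucosal values, the groups overlapped, and the gene did not pass without a filter (limma adjusted p = 0.463).

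The receptor chains were well above the floor in both tissues. Il6r encodes the chain that binds interleukin-6, and its signal was 8.99, 8.60 and 8.92 in peri-implant tissue and 7.82, 8.35 and 8.54 in mucosa. The nearest values, 8.60 and 8.54, almost touched. The means were 8.84 ± 0.21 and 8.24 ± 0.37 (SD, n = 3 each), a difference of 0.60 (SE 0.19), or 1.52-fold, with a limma adjusted p = 0.0380. Without mucosal array 1, the lowest, the difference was 0.39 and was not called (limma adjusted p = 0.139, within 0.0151 to 0.139 over its alternatives). The call was also lost without peri-implant array 1 (limma adjusted p = 0.133) or 3 (limma adjusted p = 0.112), under quantile normalisation (limma adjusted p = 0.0560) and without the variance trend (limma adjusted p = 0.120).

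Il6st encodes gp130, the chain shared by the family. Its brightest probe set read 10.52, 10.49 and 10.59 in peri-implant tissue and 10.43, 10.17 and 10.16 in mucosa. The groups were apart by little, with mucosal array 1 near the peri-implant values. The difference was 0.28 (SE 0.09), or 1.22-fold (limma adjusted p = 0.0439). Of its 3 other probe sets, 2 differed by 0.27 and 0.24 without passing (limma adjusted p = 0.106 and 0.115), and the dimmest differed by -0.20 (limma adjusted p = 0.680). The call for Il6st was lost under 11 of 15 alternatives, among them each removal of 1 array other than mucosal array 1, with limma adjusted p from 0.0169 to 0.378 over all of them. With the mean of its probe sets the difference was 0.15.

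Stat3 encodes the transcription factor on which these receptors converge. Its signal was 11.66, 11.80 and 11.88 in peri-implant tissue and 11.31, 11.53 and 11.19 in mucosa. All peri-implant arrays were above all mucosal arrays. The means were 11.78 ± 0.11 and 11.35 ± 0.17 (SD, n = 3 each), a difference of 0.43 (SE 0.09), or 1.35-fold, with a limma adjusted p = 0.00469. A second Stat3 probe set read 9.62, 9.56 and 9.88 against 9.17, 9.43 and 9.36. It was higher by 0.37 (SE 0.12, limma adjusted p = 0.0364), again with no overlap. Of 15 alternatives, 1 ended the call of the brighter probe set, the fit that drops the variance trend (limma adjusted p = 0.0711). Its range over all of them was 8.49e-04 to 0.0711.

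**Figure D2:**
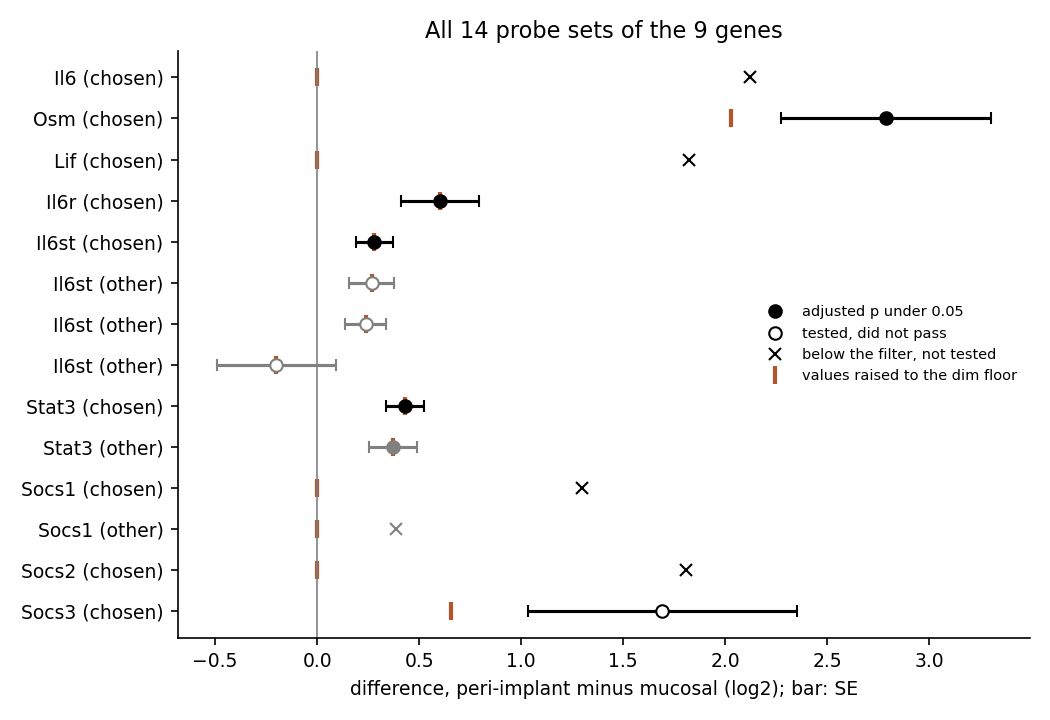
Difference between peri-implant and mucosal means on the log2 scale for all 14 probe sets, with bars for the standard error of the limma fit, filled circles for an adjusted p under 0.05, open circles for tested probe sets that did not pass, crosses for those below the filter, and orange ticks for the difference with values raised to the dim floor. The ticks of Il6, Lif, Socs1 and Socs2 fall at 0, that of Osm at 2.03 and that of Socs3 at 0.66.

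Socs3 encodes the feedback inhibitor of gp130 signalling. Its signal was 6.94, 6.17 and 6.58 on the peri-implant arrays and 3.05, 5.93 and 5.64 on the mucosal arrays. Peri-implant values all exceeded mucosal ones, but the gap between the nearest was small and mucosal array 1 stood far below the rest of its group. The means were 6.56 ± 0.38 and 4.87 ± 1.59 (SD, n = 3 each), a difference of 1.69 (SE 0.66) that did not pass (limma adjusted p = 0.0858). The 95% interval was 0.27 to 3.12 before adjustment. Without mucosal array 1 the difference was 0.78 (limma adjusted p = 0.217), and without mucosal array 2 it was 2.22 and passed (limma adjusted p = 0.0317, within 0.0317 to 0.229 over its alternatives). The mean over all arrays, 5.72, was just above the filter of 5.68.

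Socs1 encodes an inhibitor of Janus kinases best known downstream of interferons. Its brighter probe set read 5.70, 3.46 and 4.92 in peri-implant tissue and 1.75, 2.97 and 5.47 in mucosa. The groups overlapped and every value was dim, as were all values of its other probe set. Socs2, an inhibitor known for restraining growth hormone signalling, read 0.52, 4.63 and 4.88 in peri-implant tissue and 1.91, 1.89 and 0.80 in mucosa. The lowest value of all 6 was on peri-implant array 1. Without a filter neither passed (limma adjusted p = 0.556 for Socs1 and 0.462 for Socs2).

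**Figure D3:**
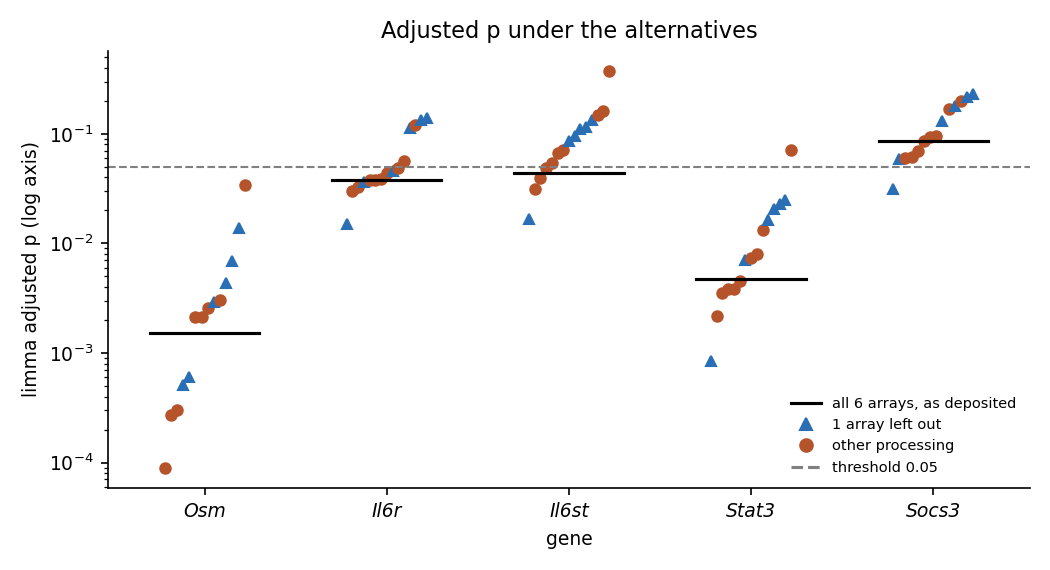
Adjusted p from limma on a log axis for the 5 tested genes, with a black line for the value with all 6 arrays as deposited, blue triangles for 1 array left out, orange circles for other processing and a dashed line at 0.05. Osm stays below the line throughout, Stat3 crosses it once, and Il6r, Il6st and Socs3 have points on both sides.

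Likeness of profile was measured as the root mean square difference of mean-centred log2 values over the 6 arrays. Of the genes tested, Slco2b1 (0.250), Rgs1 (0.298) and Marchf1 (0.304) were closest to Il6. All 6 Il6 values were under the dim floor, so likeness to Il6 has little meaning. The genes closest to Socs3 were Bik (0.204), Cd69 (0.304) and Cabcoco1 (0.306). Like Socs3, these 3 genes had their lowest value on mucosal array 1, at 3.43 for Bik, 3.18 for Cd69 and 3.19 for Cabcoco1. That follows from choosing them for a profile like that of Socs3, and these low values are under the dim floor.

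The rest of the pathway was read from lists of related genes. Over all 10585 genes tested, 15.2% were higher and 11.0% lower in limma, and 2278 and 1724 genes at an unadjusted p under 0.05. Of 9 other ligands and ligand subunits, 6 were on the array and 3 were tested. In limma 1 was higher and 0 lower, the same counts as at an unadjusted p under 0.05. The higher gene was Ebi3, the subunit shared by interleukin-27 and interleukin-35. Its signal was 10.39, 10.33 and 10.35 in peri-implant tissue and 7.84, 8.28 and 8.35 in mucosa, so the groups lay far apart. The difference was 2.20 (SE 0.14), or 4.61-fold (limma adjusted p = 9.00e-08). Cntf and Ctf1, further gp130 ligands, differed by -0.09 and -0.01 and did not pass. Clcf1, not tested, averaged 3.70 in peri-implant tissue and 6.09 in mucosa, but 4 of its 6 values were dim and the difference with the floor was -0.35. Il27ra, the receptor for interleukin-27, was dim on all arrays.

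Of 6 other receptor chains 4 were tested and 0 passed in either direction in limma, with 1 higher and 0 lower at an unadjusted p under 0.05. Il11ra1, the interleukin-11 receptor chain, differed by 1.06 and did not pass. Without mucosal array 3 it differed by 1.53 and passed (limma adjusted p = 0.0375, within 0.0375 to 0.451 over its alternatives). The mucosal values then left, 5.04 and 4.93, were under the dim floor. With the floor and all 6 arrays the difference was 0.45 (limma adjusted p = 0.322). Its mucosal mean, 5.46, was below the signal filter, so it was tested only through its peri-implant values. Lifr, the receptor chain for Lif, averaged 5.40 in peri-implant tissue and 6.60 in mucosa (limma adjusted p = 0.287). Its difference was -0.30 with the floor and -0.10 without peri-implant array 2, which read 3.19. None of the 4 Janus kinases passed in limma, and 1 was higher and 0 lower at an unadjusted p under 0.05. Jak1, the kinase most used by gp130, stood at 12.50 and 12.46. Tyk2 differed by 0.31, Jak2 by 0.21 and Jak3 by 1.24, which became 0.14 with the floor. Of 4 other STAT genes tested, 1 was called higher, Stat2, by 0.40 (limma adjusted p = 0.0445). Its call was lost under 11 of 15 alternatives (limma adjusted p from 0.00530 to 0.134), including removal of any one of peri-implant arrays 1, 2 and 3 and mucosal arrays 1 and 3.

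Several other inhibitors of cytokine signalling were lower in peri-implant tissue. Among 14 tested genes there were 5 lower, 2 higher and 7 under neither call, and the median difference was 0.05. Over all genes tested, 11.0% were lower and 15.2% higher. Socs6 read 10.04, 10.03 and 10.28 in peri-implant tissue against 10.76, 11.00 and 10.60 in mucosa, with no overlap. It fell by 0.67 (SE 0.11, limma adjusted p = 5.79e-04). Pias3, a protein inhibitor of activated STAT3, fell by 0.44 (SE 0.09, limma adjusted p = 0.00253) and its relative Pias2 by 0.38 (limma adjusted p = 0.00903). Socs5 fell by 0.43, and Cish, a SOCS protein of STAT5 signalling, by 0.57. The higher ones were Ptprc, by 1.69 (SE 0.20), and Ptpn2, a phosphatase, by 0.34. Ptprc encodes CD45, which is carried by all leukocytes. Without peri-implant array 3 or mucosal array 2 only 1 gene of this list was called higher.

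Of 14 other receptors and cytokines that signal through STAT3, only 8 were on the array and 7 were tested. Of the 7, 4 were higher and 0 lower (limma, and likewise at an unadjusted p under 0.05), and their median was 1.81. Over all genes tested, 15.2% were higher and 11.0% lower. Csf3, granulocyte colony-stimulating factor, read 9.56, 9.12 and 8.93 in peri-implant tissue and 5.78, 6.59 and 5.05 in mucosa. It was higher by 3.40 (SE 0.33, limma adjusted p = 7.97e-06), or 3.08 with the floor. Its receptor gene Csf3r was higher by 2.26 (SE 0.19). The interleukin-10 receptor chain Il10ra was higher by 1.81 and the common gamma chain Il2rg by 1.83. Il10 itself averaged 7.87 and 7.35 and did not pass (limma adjusted p = 0.184).

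Of 33 genes known to respond to STAT3 among others, 22 were tested. Higher signal was called for 11 and lower for 2, against 15.2% and 11.0% of all genes tested, and 9 missed the threshold. Of the 11, Lcn2, Batf and Hp passed the signal filter only through their peri-implant values, so that their count is a description. The same holds for Tnf, Adgre1, Cd3e and Mb in the lists that follow. The median was 0.41. At an unadjusted p under 0.05 the list had 14 higher and 3 lower genes, against 2278 and 1724 of all 10585 genes tested. Saa3, an acute-phase serum amyloid, was 12.08, 12.10 and 12.04 in peri-implant tissue and 7.38, 7.69 and 6.96 in mucosa, a difference of 4.73 (SE 0.15, limma adjusted p = 1.74e-10). Cebpd, a transcription factor of the acute-phase response, was higher by 2.16 (SE 0.08), Fos by 2.39 (SE 0.11) and S100a9, a calprotectin subunit, by 2.77 (SE 0.13). Pim1, Myc, Junb, Bcl3 and Mcl1, also textbook STAT3 targets, differed by 0.37, -0.25, 0.25, 0.20 and 0.17 and did not pass. Among them Junb and Bcl3 were higher at an unadjusted p under 0.05 in limma. The lower genes were Timp1, which fell by 0.41, and Ccnd1, which fell by 0.34. Without peri-implant array 1 or 2, or mucosal array 1, only 1 gene of this list was called lower. Several liver-type acute-phase genes were not tested, among them Fga, Fgb, Fgg and Orm1, whose group means were all under the floor.

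A list built around inducers of Il6 transcription and their adaptors had 12 higher and 0 lower genes of 17 tested in limma. Over all genes tested, the shares were 15.2% and 11.0%. At an unadjusted p under 0.05 the list had 14 and 1. It also holds genes that act against Il6 or NF-kB, among them Nfkbia and Zc3h12a, so these are not counts of inducers alone. The median of the list was 0.60. Without peri-implant array 1, 1 gene of this list was called lower. Il1b, encoding interleukin-1β, was higher by 3.72 (SE 0.09), Il1a by 1.18 (SE 0.10), Tnf by 2.70 (SE 0.31, 2.02 with the floor) and Nfkbia, the NF-kB inhibitor and target, by 0.68 (SE 0.07). Zc3h12a, which encodes an RNase that degrades Il6 transcript, was higher by 0.73.

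**Figure D4:**
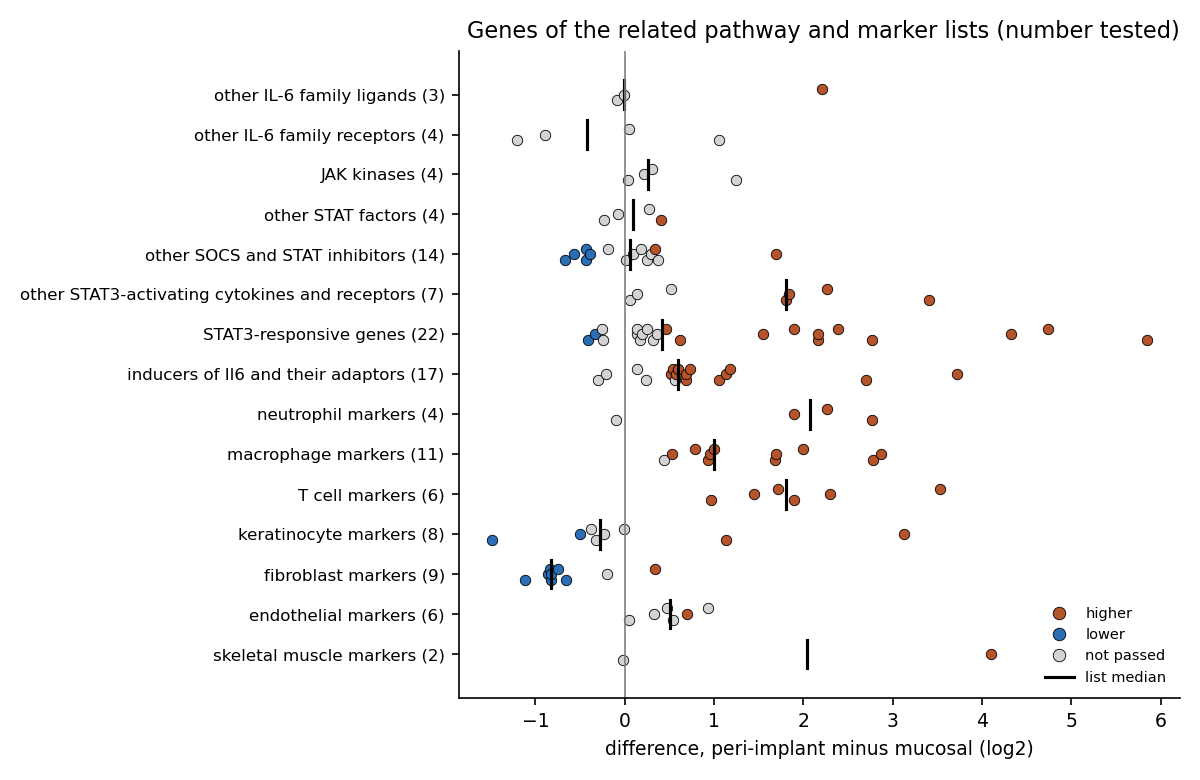
Difference between peri-implant and mucosal means on the log2 scale for every tested gene of the related lists and cell type marker lists, one point per gene, orange for higher, blue for lower and grey for not passed, with a black line at each list median and the number tested in brackets. Points of the other STAT3-activating, macrophage and T cell lists lie to the right of 0, and those of fibroblast markers mostly to the left.

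Most of the tested leukocyte markers were also higher in peri-implant tissue. For the counts that follow, 15.2% of all genes tested were called higher and 11.0% lower. Macrophage markers were higher in 10 of 11 tested genes of 12 on the array, and their summed linear signal was 16200 to 16640 in peri-implant tissue against 6192 to 6547 in mucosa. T cell markers were higher in 6 of 6 tested genes of 9, with sums of 1896 to 2053 against 519 to 649. Neutrophil markers were higher in 3 of 4 tested genes of 7, with sums of 118400 to 160900 against 26350 to 28810 that came mostly from S100a8 and S100a9, which keratinocytes also make. These 3, Csf3r, S100a8 and S100a9, were already counted in the STAT3-activating or STAT3-responsive list, so they add no separate result. Cxcr2, a neutrophil receptor, did not differ past the test, and the granule gene Mmp8 was dim in both tissues, as were Cd163 among macrophage genes and Cd4 among T cell genes. Of 9 fibroblast markers 7 were lower and 1 higher, with sums of 44870 to 46060 against 69360 to 76350. Of 8 keratinocyte markers, Krt4 and Krt1 were higher, by 3.12 and 1.14, Krt5 and Col17a1 fell by 0.50 and 1.49, and 4 missed the threshold. Of 6 endothelial markers 1 was higher and 0 lower in limma, with 3 and 0 at an unadjusted p under 0.05. Of 7 skeletal muscle markers 2 were tested. Mb was higher by 4.10, or 2.45 with the floor, and Myh1 differed by -0.02 and did not pass. Acta1, not tested, went the other way. It averaged 2.87 in peri-implant tissue and 6.93 in mucosa, a difference of -1.04 with the floor. The other 4 had both group means under the floor. The part of these markers in the differences of Osm, Il6r, Il6st and Stat3 was not tested. In whole tissue, more cells of a type and more RNA per cell cannot be told apart.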

How the data were processed

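Biotin-labelled RNA from 6 samples was hybridised to Affymetrix 3′ expression arrays, per the labels' protocols. The deposited log2 values had been scaled by the authors: as linear signal, every array had a 2% trimmed mean of 500.2. The sources used here do not name the software or the background method. The number of arrays limits the precision.

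Of 31042 probe sets that were not controls, 20826 had 1 gene symbol, 436 several and 9780 none. Those with a mean above the 40th percentile (5.68) were tested, 18625 in all, with limma 3.58.1 in R 4.3.3 (lmFit, eBayes with a variance trend, two-sided, Benjamini-Hochberg over all probe sets tested). Differences are peri-implant minus mucosal, with the SE of the fit. The fit was tested on simulated data. The members and lists were chosen with earlier results of these data known. Named genes are all members, up to 4 of each related list by smallest p, 2 of each marker list by highest mean, and the 3 most like Il6 and Socs3 among the genes tested. Others were named after their values were seen: in the lists, Clcf1, Il27ra, Lcn2, Batf, Hp, Adgre1, Cd3e, Krt4, Krt1, Krt5, Col17a1, Socs5, Cish, Ptpn2, Il10, Pim1, Myc, Junb, Bcl3, Mcl1, Timp1, Ccnd1, Fga, Fgb, Fgg, Orm1, Zc3h12a, Cxcr2, Mmp8, Cd163 and Cd4. Acta1 was also named after its values were seen. The alternatives were not tabulated gene by gene for Acta1 or the others so named.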

Additional observations from a re-analysis of the deposited data

How the results depend on the processing

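The alternatives were other signal filters, probe set averaging, other normalisations, a dim floor, other variance models, a replicate block and removal of each array. Of 73 values of the 5 tested members under them, 55 kept direction and side of the threshold, 17 lost the call (Il6r, Il6st and Stat3), 1 gained it (Socs3) and 0 reversed. From 4 members called higher the count became 2 under quantile normalisation, 1 without the variance trend and 2 to 4 when 1 array was left out. Without the variance trend the probe sets called lower numbered 1287 in place of 1945. The cause of these changes was not tested.

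Of the related lists, the single STAT gene called higher became 0 without a filter, under quantile normalisation, median centring, the dim floor, no variance trend and the replicate block, and was 0 to 1 with 1 array left out. The inhibitors called higher became 1 under median centring and without the variance trend, and were 1 to 3 with 1 array left out. STAT3-responsive genes called lower became 0 without the variance trend, and were 1 to 3 with 1 array left out. Genes called lower in the list built around inducers of Il6 became 1 under quantile normalisation and were 0 to 1 with 1 array left out. Other receptors called higher were 0 to 1 with 1 array left out. With the 60th percentile filter, which leaves fewer genes tested, 2 other STAT3-activating genes were called higher.

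Several differences near 0 changed sign. With averaged probe sets Cntfr became -0.21 and Jak1 -0.13. Under quantile normalisation Myh1 became 0.031, and Krt13 became 0.19 and was called higher (limma adjusted p = 0.00620). A larger difference, that of Lepr, was -0.89 without passing and became 0.11 with the dim floor. With 1 array left out the ranges were -0.42 to 0.51 for Cntfr, -0.18 to 0.13 for Krt13, -0.101 to 0.057 for Ctf1, -2.005 to 0.37 for Lepr, -0.065 to 0.033 for Myh1 and -0.383 to 0.082 for Stat5b.

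The labels do not say whether same-numbered samples come from one rat, so the numbers were not taken as pairs. Same-numbered samples did not deviate together (correlations of 0.01, -0.08 and 0.03). With 3 samples per group this cannot show whether left and right tissue came from the same rats. With the replicate block 3 members were called higher, the call for Il6st being lost (limma adjusted p = 0.0542), 0 were called lower, and 2172 probe sets were higher and 1904 lower. Signals under the floor limit what can be said of Il6, Lif, Socs1 and Socs2.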
